A study of Caenorhabditis elegans with 6 samples.

Results

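The pud genes of Caenorhabditis elegans are named for proteins found to be more abundant in animals with reduced function of the insulin receptor DAF-2. The members described here are the entries of the count table whose symbol begins with pud-, which gave 6 of 20189 protein-coding genes: pud-1.1, pud-1.2, pud-2.1, pud-2.2, pud-3 and pud-4. The family was chosen by symbol and selected on its known difference in counts between CHX and no CHX, so its own fold changes are given as a description, and no p-value or support is drawn from its calls in that contrast. Counts came from 6 libraries of whole hermaphrodites at L4, the last larval stage. In 3 of them the animals had grown from synchronized eggs on plates with cycloheximide (CHX) at 500 µg/ml and were collected after 3 days, and in the other 3 they had grown on plates without the drug (no CHX) and were collected after 2 days, all at 23 °C. Every animal in both groups was an rpl-36A(P55Q)/mIn1 heterozygote, carrying an altered allele of a large-subunit ribosomal protein over a balancer of chromosome II, so the animals grown without the drug are not wild type. CHX is an inhibitor of translation elongation, and these RNA counts do not show whether translation was reduced in these heterozygotes. Drug and age change together between the groups.

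In worms, insulin-like peptides act on the receptor DAF-2, which signals through the phosphoinositide 3-kinase AGE-1 and its adaptor AAP-1 to kinases that keep the transcription factor DAF-16 out of the nucleus. The phosphatase DAF-18 opposes the kinase step. When signalling is low, DAF-16 enters the nucleus, and genes for stress defence, metabolism and immunity change with it. PUD-1 and PUD-2 are small proteins that bind each other as a heterodimer, and each is encoded by more than one gene copy.

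The libraries were shallow, with 385500 to 414781 counts in the CHX libraries and 313767 to 360924 in those without CHX, and 5641 genes had enough counts to be tested. With edgeR's quasi-likelihood test at an adjusted p under 0.05, 10.3% of tested genes were higher and 14.9% were lower on CHX (579 and 840 genes). That balance turned when counts were scaled by library totals and no TMM factors, with 851 higher and 605 lower. Over all tested genes the log2 fold change then had a median of 0.18, against 0.02 with TMM. The altered ribosomal protein gene, listed as rpl-36.A, stood between 149 and 225 CPM (counts per 1e6 of TMM-scaled library size) on CHX, against 184 to 263 CPM without it, and counts per gene cannot separate its alleles. The labels do not say whether replicates came from separate cultures, so errors measure the spread between these libraries, which may be technical.

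The 6 pud genes lie together on chromosome V, from 2322038 to 2330930 in WBcel235, a stretch of 8.89 kb. From left to right they are pud-1.2 on the minus strand (2322038 to 2322566), pud-2.2 on the plus strand (2323014 to 2323524), pud-3 on the minus strand, pud-4 on the plus strand, pud-2.1 on the minus strand (2329444 to 2329954) and pud-1.1 on the plus strand (2330429 to 2330930). The order is mirrored about the centre, with pud-3 and pud-4 innermost, the pud-2 copies outside them and the pud-1 copies at the ends. At the left end 447 bp separate pud-1.2 from pud-2.2, and at the right end 474 bp separate pud-2.1 from pud-1.1. The pud-1 copies have the same coding exon lengths, 256 and 197 bp, and so have the pud-2 copies, with 253 and 209 bp. In the Ensembl annotation of the same build pud-3 has 1 coding exon of 516 bp (gene span 2324634 to 2325152), and pud-4 has 2, of 259 and 227 bp (2326678 to 2327282).

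**Figure D1:**
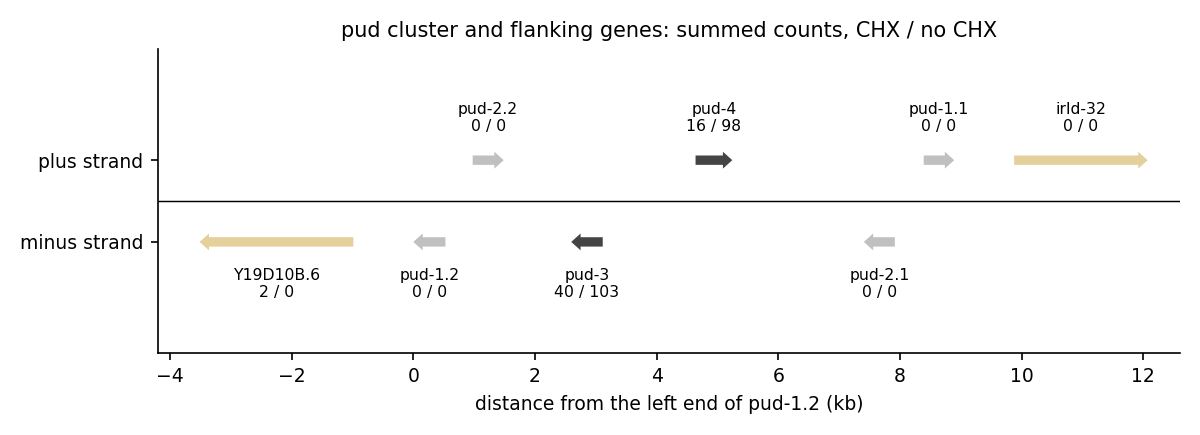
Map of the pud cluster, with gene arrows to scale along distance in kb from the left end of pud-1.2, plus strand above and minus strand below. Under or over each name stand the counts summed over the 3 CHX libraries and over the 3 libraries without CHX. Dark arrows are the pud genes with counts (pud-3 with 40 and 103, pud-4 with 16 and 98), pale grey arrows are the pud genes at 0, and sand-coloured arrows are flanking genes, which had 2 counts or fewer.

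Counts were found only in the inner members of the cluster. All 4 outer genes, pud-1.1, pud-1.2, pud-2.1 and pud-2.2, stood at 0 in every one of the 6 libraries. A count of 0 allows up to 3 counts per library, between 7.22 and 7.83 CPM in CHX libraries and between 9.19 and 10.6 CPM in those without CHX. These limits cover counting error only, and they hold only if reads from these genes could be counted. How reads that match several places were treated is not given in the sources used here, so these zeros cannot be read as absent transcripts.

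Some other duplicated genes in the table also stood at 0. The small heat shock genes hsp-16.1, hsp-16.11, hsp-16.48 and hsp-16.49, named after their values were seen, form another mirrored group of duplicated copies on chromosome V (9087293 to 9090604), and all 4 were at 0 in all 6 libraries. Their relatives hsp-16.2 and hsp-16.41, several megabases away on the same chromosome, have the same coding exon lengths but had counts, 21 on CHX against 64 without CHX for hsp-16.2 and 22 on CHX against 47 without CHX for hsp-16.41. Across the table, 528 genes outside the pud family had the same lengths of 2 or more coding exons as another gene within 20 kb, and 346 of them, 65.5%, were at 0 in all libraries. Among the other 17202 genes with 2 or more annotated coding exons the share was 30.2%. Equal exon lengths do not show that sequences are identical, and these gene sets may also differ in how strongly they are expressed. The part of read assignment in the zeros was not tested.

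The gene pud-3 (WBGene00017501) had 10, 19 and 11 counts in the CHX libraries, against 22, 50 and 31 in the libraries without CHX. Scaled to library size, its level was 26.1, 49.2 and 26.5 CPM on CHX, against 72.1, 153 and 110 CPM without CHX. The groups did not overlap, and the highest CHX library, replicate 2, lay 22.9 CPM below the lowest library without CHX. The means were 33.9 ± 13.3 CPM on CHX and 112 ± 40.5 CPM without CHX (SD, n = 3 each), and the fitted log2 fold change was -1.72 (SE 0.38). As a ratio of summed counts scaled to library size, CHX over no CHX was 0.300, with an exact 95% counting interval of 0.203 to 0.436. Counting intervals, here and below, leave out the spread between libraries. They are no test of the contrast on which the family was chosen.

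The gene pud-4 (WBGene00017498) was lower on CHX by a wider margin. It had 3, 7 and 6 counts in the CHX libraries, against 29, 40 and 29 in those without CHX. These correspond to 7.83, 18.1 and 14.4 CPM on CHX, against 95.1, 122 and 103 CPM without CHX. CHX replicate 1 stood at the limit that a count of 0 allows, and the lowest library without CHX was 5.24 times the highest CHX library. The fitted log2 fold change was -2.95 (SE 0.44), and the scaled ratio of summed counts was 0.126 (exact 95% counting interval 0.0693 to 0.215). The spread without CHX was narrow for pud-4, with the highest library 1.29 times the lowest, and wider for pud-3, at 2.12 times.

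**Figure D2:**
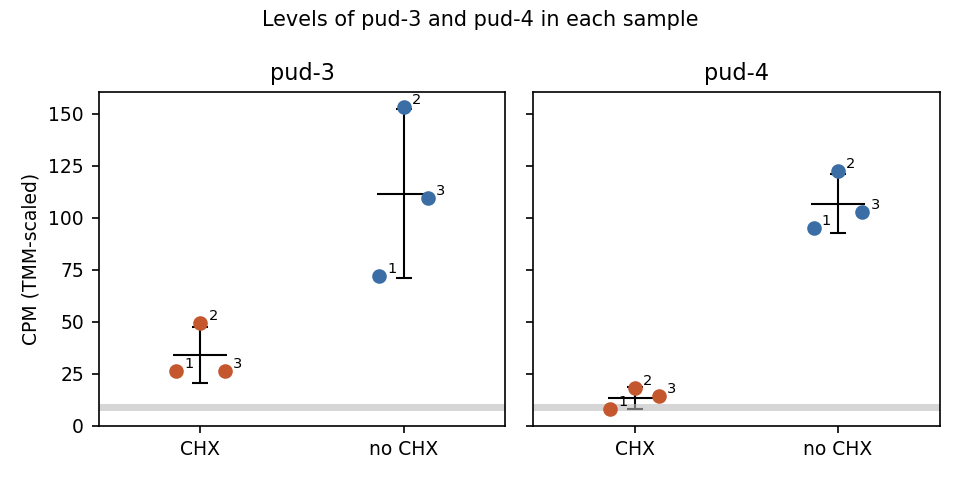
Levels of pud-3 (left) and pud-4 (right) in CPM scaled by TMM factors, with CHX libraries to the left of those without CHX and points numbered by replicate. Black bars give the mean and SD of 3 libraries, and the grey band spans the level of 3 counts over the 6 libraries, 7.22 to 10.6 CPM. CHX libraries lie at 26.1 to 49.2 CPM for pud-3 and 7.83 to 18.1 CPM for pud-4, below every library without CHX.

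The members that passed the low-count filter, pud-3 and pud-4, were both among the genes called lower on CHX, beside 14.9% of all tested genes, and both had all CHX libraries below all libraries without CHX, as had 20.2% of tested genes. This contrast was known when the family was picked, so these counts were fixed by the choice and nothing is read from them. Both genes passed the low-count filter through the libraries without CHX: at its cutoff of 26.8 CPM of raw totals, 1 CHX library passed for pud-3 and 0 for pud-4, against 3 without CHX for each. Among tested genes ordered by fold change from the lowest, pud-4 was at position 10 and pud-3 at position 145. These positions come from the contrast on which the family was chosen, so nothing is read from them. In the order of mean CPM, pud-3 stood above 13.3% of tested genes on CHX and above 63.2% of them without CHX, and pud-4 above 1.01% on CHX and 61.8% without CHX. In whole animals, fewer cells of a type and less RNA per cell cannot be told apart, and this applies to each difference given here.

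Per length, the level of pud-3 was 65.8 ± 25.7 CPM per kb of coding sequence on CHX and 216 ± 78.6 without CHX, and that of pud-4 was 27.7 ± 10.7 CPM per kb on CHX and 220 ± 29.2 without CHX (SD, n = 3 each). Without CHX the difference between the levels of the genes was smaller than the spread of either. On CHX pud-4 was below pud-3 in all 3 libraries. The share of pud-4 in the counts of both genes was 23.1%, 26.9% and 35.3% in the CHX libraries, against 56.9%, 44.4% and 48.3% in those without CHX. Over summed counts the share was 28.6% on CHX (16 of 56; exact 95% binomial interval 17.3% to 42.2%) and 48.8% without CHX (98 of 201; 41.7% to 55.9%). The intervals of the sums touch between 41.7% and 42.2% and leave out the spread between libraries, and those of single libraries overlap widely. The share is made of counts from the contrast on which the family was chosen, so nothing is read from its difference between groups. In the table the pud-3 transcript spans 2324510 to 2326827 and overlaps the start of pud-4 by 150 bp on the other strand, whereas 1525 bp separate the annotated genes. The use of strand in counting is not given, so reads in that overlap could belong to either gene.

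**Figure D3:**
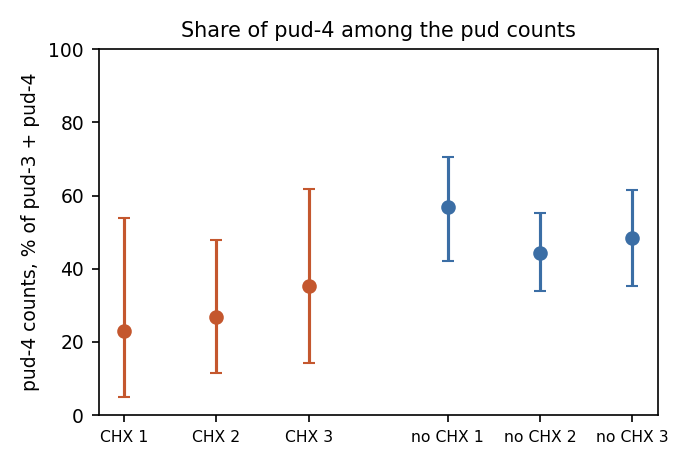
Counts of pud-4 as a percentage of the counts of pud-3 and pud-4 together, for each CHX library (left) and each library without CHX (right). Bars are exact 95% binomial intervals and cover counting error only. The points lie at 23.1% to 35.3% on CHX and at 44.4% to 56.9% without CHX.

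Summed over all 6 members, the family had 13, 26 and 17 counts on CHX, against 51, 90 and 60 without CHX. Scaled, this was 33.9, 67.4 and 40.9 CPM on CHX, against 167, 276 and 212 CPM without CHX, with a ratio of 0.215 (exact 95% counting interval 0.157 to 0.291). Replicate 2 was the highest library of each group. The sum does not depend on how reads were divided between pud-3 and pud-4, but the 4 members at 0 add nothing to it.

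Around the cluster almost no counts were found, and zeros here too cannot be read as absent transcripts. Over all genes of the table, 31.2% were at 0 in all libraries. Within 20 kb of a member there were 6 other genes in the table, and 5 of them were at 0 in all libraries: irld-32, irld-28, irld-29, irld-30 and irld-53, whose symbol stands for the insulin and EGF receptor L domain. The sixth, Y19D10B.6, had 2 counts on CHX and 0 without CHX, so none was tested. The nearest tested genes, named after their values were seen, were cyp-32B1, a cytochrome P450 gene 121 kb to the left, and gst-10, a glutathione S-transferase gene 231 kb to the right. The level of cyp-32B1 was 27.1 ± 3.78 CPM on CHX and 37.6 ± 15.1 CPM without CHX (SD, n = 3 each; edgeR adjusted p 0.540). That of gst-10 was 18.3, 18.1 and 28.9 CPM on CHX, against 32.8, 153 and 81.3 CPM without CHX. It fell by 2.02 on the log2 scale (SE 0.48, adjusted p 0.00230), called in 14 of 15 alternatives (adjusted p 5.77e-05 to 0.0811). Without no_CHX replicate 2, the highest library, the log2 fold change was -1.37 and the call was lost.

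The 5 tested genes whose profile over the 6 libraries was most like that of the summed pud counts lay on other chromosomes. Nothing is read from the chromosomes of so few genes. Likeness was the root mean square difference between log2 CPM profiles centred on their means, over 5584 genes, with a median of 1.25. The closest were C52D10.3 on chromosome IV (0.19), C36H8.1 on chromosome IV (0.20), the Rab GTPase-activating protein gene tbc-7 on X (0.20), pat-4 on III (0.35), for the integrin-linked kinase of muscle attachments, and vwa-8 on X (0.36). C52D10.3 stood at 10.4, 20.7 and 14.4 CPM on CHX, against 49.2, 85.7 and 91.9 CPM without CHX. The level of vwa-8 was 83.6, 111 and 69.8 CPM on CHX, against 302, 328 and 254 CPM without CHX. Since they were chosen for likeness to counts that were lower on CHX, their own direction was fixed by the choice. All but vwa-8 had 93 counts or fewer in either group.

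The other genes of the pathway came from lists built on their known roles. Of 19 genes for components and partners of insulin signalling, 15 were tested, 5 rose and 1 fell, beside 10.3% higher and 14.9% lower of all tested genes. Their median was 0.58 on the log2 scale, beside 0.02 over all tested genes. The phosphatase gene daf-18 rose 2.12-fold, at 900 ± 22.4 CPM on CHX and 426 ± 107 CPM without CHX (SD, n = 3 each; adjusted p 1.56e-05), and was called in 15 of 15 alternatives. The other calls were less steady. The sirtuin gene sir-2.1 rose by 1.14 on the log2 scale (SE 0.34, adjusted p 0.0136, 0.00499 to 0.0759 over 15 alternatives, called in 12). The adaptor gene aap-1 stood at 54.8, 67.4 and 62.5 CPM on CHX, against 6.56, 6.12 and 46.0 CPM without CHX, where replicate 3 was far above the others (adjusted p 0.0236, called in 10 of 15 alternatives). Its log2 fold change was 1.69, and 3.199 without that library. Also higher were age-1 (1.77-fold, adjusted p 0.0245, called in 10 of 15) and the receptor gene daf-2 itself (1.61-fold, adjusted p 0.0347, called in 7 of 15), both named after their values were seen. The kinase gene sgk-1 was the member that fell, at 71.2 ± 10.2 CPM on CHX and 145 ± 37.9 CPM without CHX (adjusted p 0.0137, called in 11 of 15). The number higher was 2 without CHX replicate 1, 3 without CHX replicate 2, CHX replicate 3 or no_CHX replicate 1, and 1 without no_CHX replicate 2 or with DESeq2. The number lower was 0 without CHX replicate 3, no_CHX replicate 1 or no_CHX replicate 3, 2 without no_CHX replicate 2, and 0 with DESeq2.

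The transcription factor gene daf-16, named after its value was seen, was at 224 ± 25.4 CPM on CHX and 229 ± 24.8 CPM without CHX (SD, n = 3 each; adjusted p 0.932). The 14-3-3 gene par-5, whose protein binds DAF-16, was at 710, 684 and 649 CPM on CHX, against 492, 720 and 626 CPM without CHX (adjusted p 0.512). Neither passed the test in any of 15 alternatives.

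Genes known to be activated by DAF-16 are the wider group to which the pud proteins are linked by their name. Of 50 listed symbols 36 were in the table, and 11 were at 0 in every library, among them the duplicated hsp-16 copies. Of all genes in the table, 31.2% were at 0 throughout. From the list 17 genes were tested. Of these 5 rose, 2 fell and 10 had no call, beside 10.3% higher and 14.9% lower of all tested genes, and the median was 0.11 on the log2 scale. The number that fell was close to the share over all tested genes. The lysozyme gene lys-7 rose 6.73-fold, at 504, 342 and 486 CPM on CHX, against 78.7, 52.1 and 67.2 CPM without CHX (adjusted p 1.48e-09). The alcohol dehydrogenase gene sodh-1 stood at 123, 176 and 156 CPM on CHX, against 42.6, 6.12 and 21.2 CPM without CHX, and rose by 2.70 on the log2 scale (adjusted p 1.12e-05), or by 3.49 without no_CHX replicate 1. The thaumatin family gene thn-2 rose 2.85-fold (adjusted p 0.00170) and the small heat shock protein gene sip-1 rose 2.55-fold, at 2504 ± 205 CPM on CHX and 983 ± 308 CPM without CHX (adjusted p 1.14e-07). Each of these 4 was called in 15 of 15 alternatives. The fifth, lea-1, for a protein of the late embryogenesis abundant type, was called in 11 of 15 (1.44-fold, adjusted p 0.0213).

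The genes of that list that fell, named after their values were seen, were hsp-16.2 and spp-1. The small heat shock gene hsp-16.2 stood at 17.6 ± 4.38 CPM on CHX (SD, n = 3), against 68.8, 70.4 and 70.7 CPM without CHX (log2 fold change -1.96, SE 0.46, adjusted p 0.00198). The saposin-like gene spp-1 stood at 35.8 ± 11.5 CPM on CHX and 96.6 ± 19.7 CPM without CHX (adjusted p 0.00540), and both were called in 15 of 15 alternatives. The most abundant member without a call was icl-1, for the enzyme of the glyoxylate cycle, at 1310 ± 148 CPM on CHX and 1523 ± 421 CPM without CHX (adjusted p 0.307). Widely used reporters of DAF-16 had almost no counts: sod-3 had 0 on CHX and 2 without CHX, and mtl-1 and hsp-12.6 were at 0 throughout.

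Of 15 genes known to be repressed by DAF-16, 5 were tested, 1 rose and 0 fell by edgeR's test (0 also at an unadjusted p under 0.05). These counts stand beside 10.3% higher and 14.9% lower of all tested genes, and nothing is read from counts this small. The median was -0.06 on the log2 scale. The gene that rose was dod-24, for a CUB-like domain protein, at 94.0, 77.8 and 103 CPM on CHX, against 9.83, 3.06 and 3.54 CPM without CHX (adjusted p 3.03e-06). Its log2 fold change was 3.98, and 4.67 without no_CHX replicate 1. The yolk protein genes vit-2 and vit-5 had no call (adjusted p 0.620 and 0.493). In CHX replicate 2 both stood far above the other CHX libraries, with vit-5 at 363, 1179 and 361 CPM on CHX, against 1121, 753 and 1114 CPM without CHX. Without that library both were called lower (adjusted p 0.00586 for vit-2 and 5.33e-08 for vit-5), and the number lower in the list was 2. It was 1 without CHX replicate 3, without no_CHX replicate 3, with limma-voom or with looser low-count filters, and DESeq2 gave 0.

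**Figure D4:**
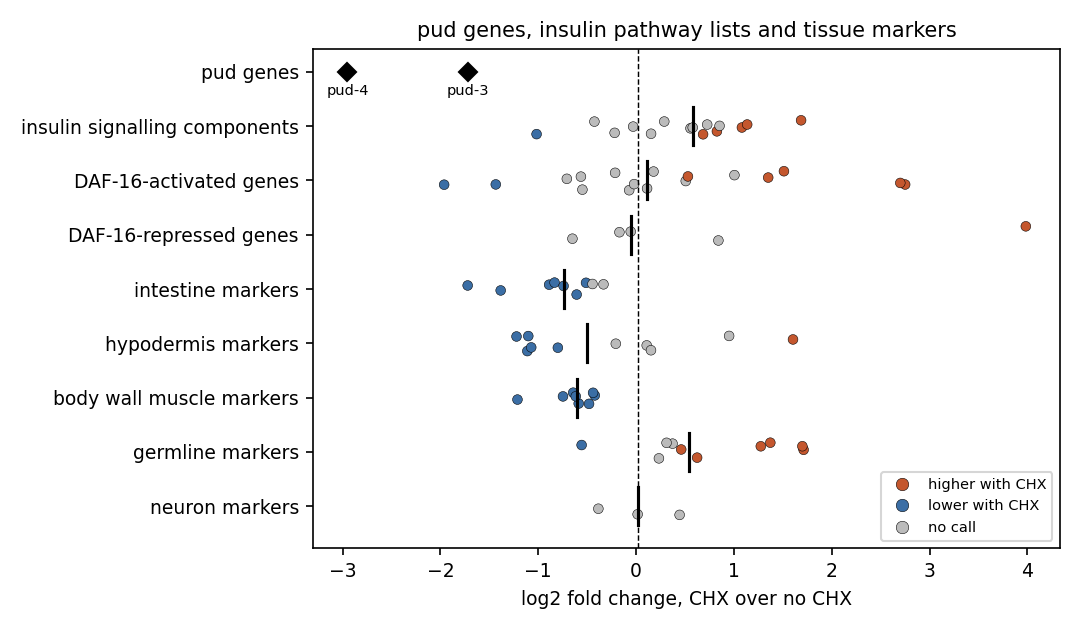
Fitted log2 fold changes, CHX over no CHX, of pud-3 and pud-4 (diamonds, -1.72 and -2.95) above the tested members of the insulin pathway lists and of the tissue marker lists. Each point is 1 gene, filled orange where called higher on CHX, blue where called lower and grey without a call, with vertical position within a list spread at random; black ticks are list medians and the dashed line is the median of all tested genes, 0.02. The lowest points of the lists are hsp-16.2, at -1.96, and the intestine marker pho-1, at -1.72. List members with too few counts to be tested are not drawn. The pud genes were chosen on this contrast, so nothing is read from where they lie beside the lists.

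Markers of several tissues differed between the groups together with the pud genes, and their counts stand beside the same shares of all tested genes, 10.3% higher and 14.9% lower. Of 9 tested intestine markers 7 were lower on CHX and 0 higher (0 also by DESeq2, by limma-voom or at an unadjusted p under 0.05 with edgeR), and the median was -0.74 on the log2 scale. Their summed level over 11 genes was 4808 to 5210 CPM on CHX, against 7109 to 8192 CPM without CHX. The protease gene asp-1 was at 2375 ± 47.5 CPM on CHX and 3386 ± 438 CPM without CHX (adjusted p 8.99e-04), and the gut actin gene act-5 at 823 ± 73.4 CPM on CHX and 1467 ± 38.6 CPM without CHX (SD, n = 3 each; adjusted p 1.74e-05). The defining intestinal factor genes elt-2 and elt-7 had 6 counts each on CHX, against 19 and 18 without CHX, and were not tested.

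Of 10 tested hypodermis markers 5 were lower and 1 was higher, with a median of -0.50. The higher one was lin-26, named after its value was seen, and 0 were higher without CHX replicate 3 or with DESeq2. Their summed level was 2237 to 2745 CPM on CHX, against 3698 to 4121 CPM without CHX, and of the 18 listed genes col-7 was at 0 throughout. The attachment genes mup-4 and vab-10 fell 2.15-fold and 1.74-fold (adjusted p 3.02e-06 and 2.28e-04). All 8 body wall muscle markers were lower on CHX (median -0.60; summed level 6080 to 6641 CPM on CHX, against 7858 to 11365 CPM without CHX), with unc-54, a myosin heavy chain gene, 1.68-fold lower (adjusted p 3.06e-05) and the paramyosin gene unc-15 1.34-fold lower (adjusted p 0.0249, called in 8 of 15 alternatives). The muscle count was 3 with library totals alone, without CHX replicate 3 or with DESeq2, 4 with no low-count filter, with a replicate block or without no_CHX replicate 2, and 5 without CHX replicate 1, CHX replicate 2 or no_CHX replicate 1.

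Of 10 germline markers 6 were higher and 1 was lower, with a median of 0.54 and a summed level of 9913 to 10764 CPM on CHX, against 6189 to 7350 CPM without CHX. The list was uneven, and the genes that follow were named after their values were seen. The lower one was glh-1, at -0.56 on the log2 scale and called in 15 of 15 alternatives. The genes gld-1 and pgl-1, at 0.23 and 0.37, had no call. The largest rises were 1.71 for puf-5, 1.70 for rme-2 and 1.37 for oma-1. The eggshell gene cbd-1 rose 2.42-fold (adjusted p 1.09e-08), and cgh-1, for a germline RNA helicase, had no call (adjusted p 0.0781, 0.00546 to 0.295 over 15 alternatives). Of 11 neuron markers 3 were tested and 0 were called, by edgeR, by DESeq2, by limma-voom or at an unadjusted p under 0.05, among them the neuropeptide-processing genes egl-3 (adjusted p 0.344) and egl-21 (adjusted p 0.982). Their median was 0.02, and the summed level of the list was 274 to 373 CPM on CHX, against 304 to 456 CPM without CHX. With no low-count filter the median over all 11 genes was -0.40, and low counts limit these calls. The scaled ratios of pud-3 and pud-4 were 0.300 and 0.126, and the abundant markers asp-1, act-5, mup-4, vab-10, unc-54 and unc-15 had folds between 0.466 and 0.746. The pud genes were chosen on this contrast and those markers for abundance, so nothing is read from the difference. Among other intestine markers, scaled ratios were 0.244 for elt-2, 0.257 for elt-7, 0.298 for pho-1, 0.377 for nhx-2 and 0.544 for vha-6. The rest were at 0.595 for pept-1, 0.656 for ifb-2, 0.733 for ifc-2 and 0.792 for ges-1. These were named after their values were seen, and elt-2 and elt-7 were not tested. The intestinal acid phosphatase gene pho-1, named after its value was seen, was as far down as pud-3 (log2 fold change -1.72, SE 0.44, adjusted p 0.00451, called in 14 of 15 alternatives). The part of tissue amounts, or of age, in the pud levels was not tested.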

How the data were processed

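Messenger RNA of whole L4 hermaphrodites was sequenced in 3 libraries with CHX and 3 without. Sample titles gave each library's group and replicate number. The deposited table holds unnormalized read counts in coding sequence, with 1 transcript standing for each of 20189 genes and its WBcel235 position, per the file headers. Per the labels' protocols, Trizol was used for extraction, RNase H for removing ribosomal RNA, and a SMARTER kit for the libraries. In the submitters' processing notes the build WBcel235 and the tool DESeq2 appear. Not given in the sources used here are the aligner, the counter, the use of strand and the handling of reads with several matches or of duplicates. Without molecular identifiers, intervals cover counting error only.

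Counts were fitted in R 4.3.3 with edgeR 4.0.16: filterByExpr (minimum count 10, minimum total 15), TMM factors, robust quasi-likelihood F-test, and Benjamini-Hochberg adjustment over 5641 genes with a threshold of 0.05. Standard errors are the absolute log2 fold change over the square root of F. CPM are counts over effective library size. The fit was checked on simulated counts with planted changes. DESeq2 1.42.0 and limma 3.58.1 were alternatives, with other normalizations, filters, a replicate block, summed copies and each library left out in turn. Intervals are exact (scipy 1.17.1), and figures used matplotlib 3.10.9. Coding lengths came from Ensembl release 115, in which 18408 table transcripts were found. The transcript listed for pud-3 is not among them, and the annotated one of that gene was used. Symbols follow the table and RefSeq, while Ensembl calls both pud-2 copies pud-2.2.

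The members, lists and alternatives were chosen with earlier results of these data known. Named genes are all pud members, up to 4 called and the 2 most abundant members of each insulin list, the 2 most abundant of each tissue list, tested genes within 20 kb, and the 5 profiles closest to the summed pud counts among genes of at least 20 CPM. Gene sequences were not used here.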

Additional observations from a re-analysis of the deposited data

How the results depend on the processing

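The 15 alternatives were other normalizations, filters and tools, a replicate block, summed copies and each library left out. The contrast was known when the pud genes were picked, so their calls under these settings are no sign of stability and only values are given. The log2 fold change of pud-3 ran from -2.06 (without CHX replicate 2) to -1.42 (without no_CHX replicate 2), and that of pud-4 from -3.19 (without CHX replicate 2) to -2.69 (without CHX replicate 1). With library totals alone 851 genes were called higher and 605 lower, against 579 and 840 with TMM factors, the median of all tested genes moved from 0.02 to 0.18, and pud-3 and pud-4 were at -1.57 and -2.80. Summing the pud-1 and the pud-2 copies changed nothing, since all 4 are at 0. With a replicate block the values were -1.71 and -2.97. Deviations of same-numbered libraries correlated at -0.05, -0.03 and -0.01, and no library correlated best with its own number. In shallow libraries, values this near 0 show no pairing by number but cannot exclude it. The block called 494 genes higher and 731 lower, against 579 and 840 without it.

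DESeq2 called 348 genes higher and 559 lower. With 1 library left out, 383 to 544 were higher. The insulin signalling counts ran from 1 to 4 higher and from 0 to 2 lower when a library was left out, and DESeq2 gave 1 and 0. For genes repressed by DAF-16 the number lower was 1 with no low-count filter, 1 with a filter at 5 CPM in 3 samples, 1 with limma-voom, and 0 to 2 with a library left out. Hypodermis markers higher were 0 with DESeq2 and 0 to 1 with a library left out. Muscle markers lower were 3 with library totals alone, 4 with no low-count filter, 3 with DESeq2, 4 with a replicate block, and 3 to 8 with a library left out. The cause of these changes was not tested. Counts of 3 to 50 per library limit the precision for pud-3 and pud-4.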

Other observations

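Several genes of the insulin lists had too few counts to be tested and are given as values only, chosen after they were seen. Among genes known to be activated by DAF-16, dod-3 had 10 counts over the CHX libraries and 0 over those without CHX, and cyp-35B1 had 4 on CHX and 0 without CHX. Among those known to be repressed by it, dod-17 had 9 counts on CHX and 34 without CHX, whereas dod-23 had 42 on CHX and 11 without CHX. The insulin-like peptide gene ins-7 had 5 counts on CHX and 0 without CHX. The kinase gene pdk-1, which acts below the phosphoinositide 3-kinase, had 29 counts on CHX and 4 without CHX.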
